A study of Mus musculus with 6 samples.

Results

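Collagen genes and Mfap4, the gene of microfibril-associated protein 4, were followed in messenger RNA from mouse retina. The 44 collagens were taken by gene symbol (Col, a type number, a and a chain number), and they are all such symbols among the 24346 in the deposited tables. They comprised 11 chains of fibrillar collagens, 8 chains of basement membrane collagens and 25 chains of other types. Mfap4 was added by name as the 45th gene, having been picked from its values in the comparison described here, so its values are given as a description with no test. Sequencing libraries came from 3 samples of Cyfip2 CKO retinas, in which the conditional knockout concerns Cyfip2, a subunit of the WAVE complex that controls branched actin, and from 3 samples of Cyfip2 WT retinas. The study compared these genotypes to learn how loss of Cyfip2 affects gene expression in the retina. The sources used here do not give the Cre driver, the strain, the age or the number of retinas and animals behind each library, so p-values measure the spread between these libraries, which may be technical.

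Collagens are secreted or membrane-bound proteins whose chains wind into a triple helix, and each type is built from chains of its own genes. Fibrillar collagens form the fibrils of sclera, cornea, cartilage and vitreous, where type II collagen is the main component and carries type IX collagen on its surface. Type IV collagen networks form the basement membranes of vessels and of the inner limiting membrane of the retina. Mfap4 is a secreted glycoprotein with a fibrinogen-like domain that binds collagen, elastin and fibrillin microfibrils in the matrix.

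The values of CKO and WT libraries overlapped for all but 7 of the 44 collagens, and no collagen passed the test in either direction. Of the 7, the CKO libraries lay above in 2 and below in 5. Among the 31 collagens tested, the counts were 1 above and 3 below, and the others were too low for a test. Over all genes tested, the shares were 6.96% above and 6.95% below. Collagen messages summed to 409 ± 27.3 FPKM in CKO libraries and 398 ± 10.6 FPKM in WT libraries (SD, n = 3 each). FPKM is a count of fragments corrected for transcript length and library size, so levels can be compared between genes. As a ratio, Mfap4 had the largest difference among the members at a mean of 1 FPKM or more, at 0.973 ± 0.214 FPKM in CKO libraries and 3.80 ± 1.13 FPKM in WT libraries (SD, n = 3 each). The collagens of smallest limma p, neither past the threshold, were Col18a1 and Col6a1. Col18a1 was lower in every CKO library than in any WT library, and Col6a1 averaged 1.23 times its WT level in CKO libraries. Some other tested collagens differed more as a ratio, such as Col13a1 at 0.733 times and Col5a3 at 1.28 times the WT level. In these bulk samples, fewer cells of a type and less RNA per cell cannot be told apart.

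Cyfip2, the targeted gene, was lower in every CKO library than in any WT library. It had 8.33, 10.2 and 11.2 FPKM in the CKO libraries, against 35.5, 63.1 and 62.3 FPKM in the WT libraries. Correlation between libraries, over the 13215 genes averaging 1 FPKM or more and on the log2(FPKM + 1) scale, lay between 0.9681 and 0.9794. No library held values identical to another. Rhodopsin, the visual pigment of rods, had 5306 to 5790 FPKM in CKO libraries and 5629 to 6094 FPKM in WT libraries. Among 13 markers of fibroblasts, sclera and choroid, Dcn reached at most 0.164 FPKM and Lum at most 0.0739 FPKM in any library. A mean of 1 FPKM or more was reached by 7 of the 13, of which Pdgfra is also on the astrocyte list. In contrast, 6 of 10 markers of cornea and conjunctiva were listed at 0 in every library. Lens transcripts were present: 12 lens markers summed to between 47.4 and 105 FPKM in CKO libraries and between 67.3 and 390 FPKM in WT libraries, with WT 2 highest.

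All 44 collagens were above 0 FPKM in every library. Averaged over the 6 libraries, 9 had at least 10 FPKM, 22 had between 1 and 10 FPKM and 13 had less than 1 FPKM. Col9a1, Col6a1, Col23a1, Col4a1, Col2a1 and Col4a2 together made up between 64.5% and 67.9% of all collagen FPKM in each library, and Col9a1 alone between 27.2% and 29.4%. The spread over all 6 libraries, as a coefficient of variation, had a median of 13.2% for collagens at a mean of 1 FPKM or more and of 24.7% for those below. CKO 3 held the highest value of 19 of the 44 collagens, against 9 in WT 2, 7 in WT 3, 4 in CKO 1, 3 in CKO 2 and 2 in WT 1.

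**Figure D1:**
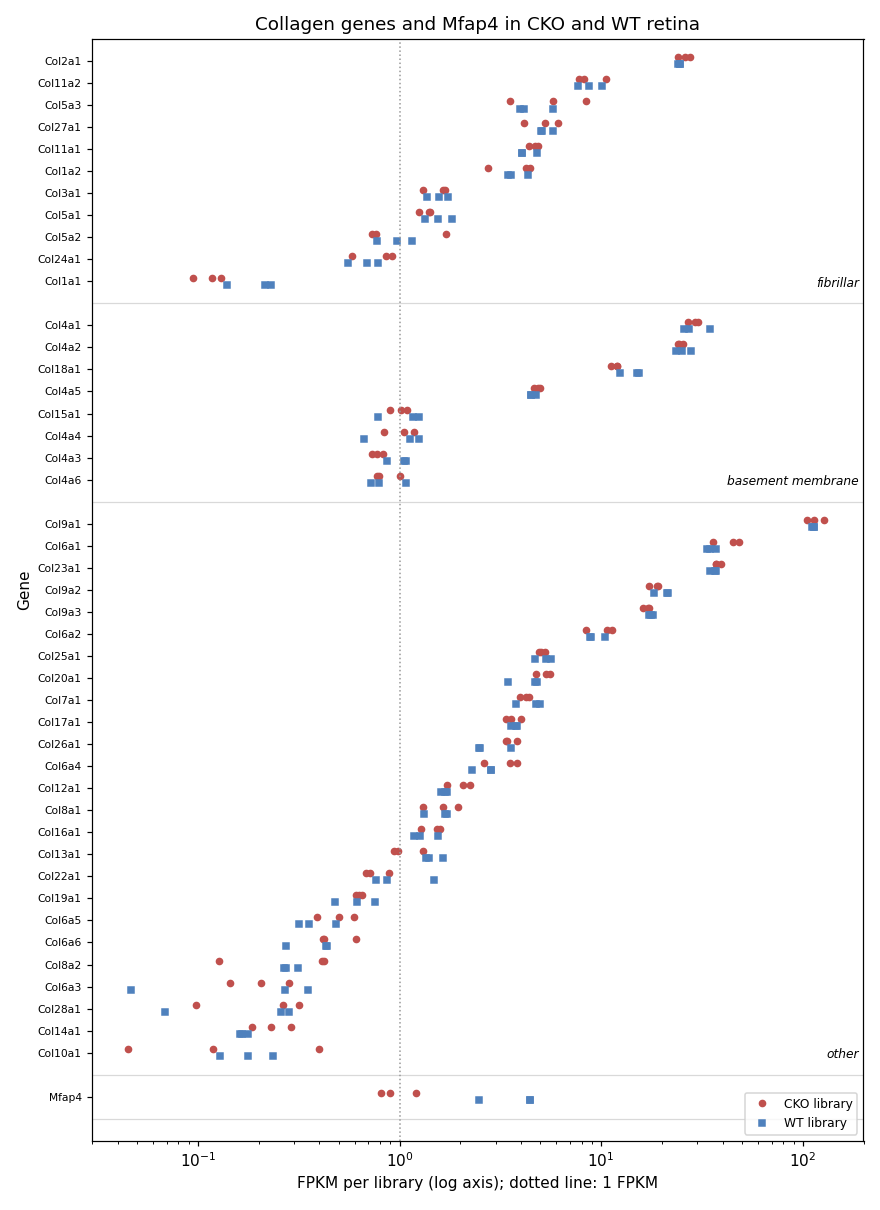
Level of each collagen gene and of Mfap4 in FPKM on a log axis, with 1 point per library (circles CKO, squares WT), grouped by class and ordered by mean level. Col9a1 lies highest, at 104 to 127 FPKM in CKO libraries and 111 to 113 FPKM in WT libraries, and in Mfap4 the groups do not overlap.

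The groups were compared with limma over the 13215 genes that averaged 1 FPKM or more, among them 31 of the 44 collagens, with 9 of 11 fibrillar, 6 of 8 basement membrane and 16 of 25 other chains. At a Benjamini-Hochberg adjusted p under 0.05, 0 collagens were higher in CKO and 0 lower, where 0.0151% of all genes tested were higher and 0.00757% lower. The lowest limma adjusted p of any collagen was 0.5498. At an unadjusted p under 0.05, 1 collagen was higher (Col6a1) and 1 lower (Col18a1), where the shares over all genes tested were 3.52% higher and 4.36% lower. The CKO libraries all lay above the WT libraries in 1 of the 31 tested collagens and all below in 3, where the shares over all genes tested were 6.96% and 6.95%. With so few genes, these counts are no result about collagens. The fold change of the tested collagens, on the log2(FPKM + 1) scale, was above 0 for 16 and below 0 for 15, with a median of 0.02 beside -0.0016 over all genes tested. The 95% confidence interval spanned 0 for 29 of the 31.

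**Figure D2:**
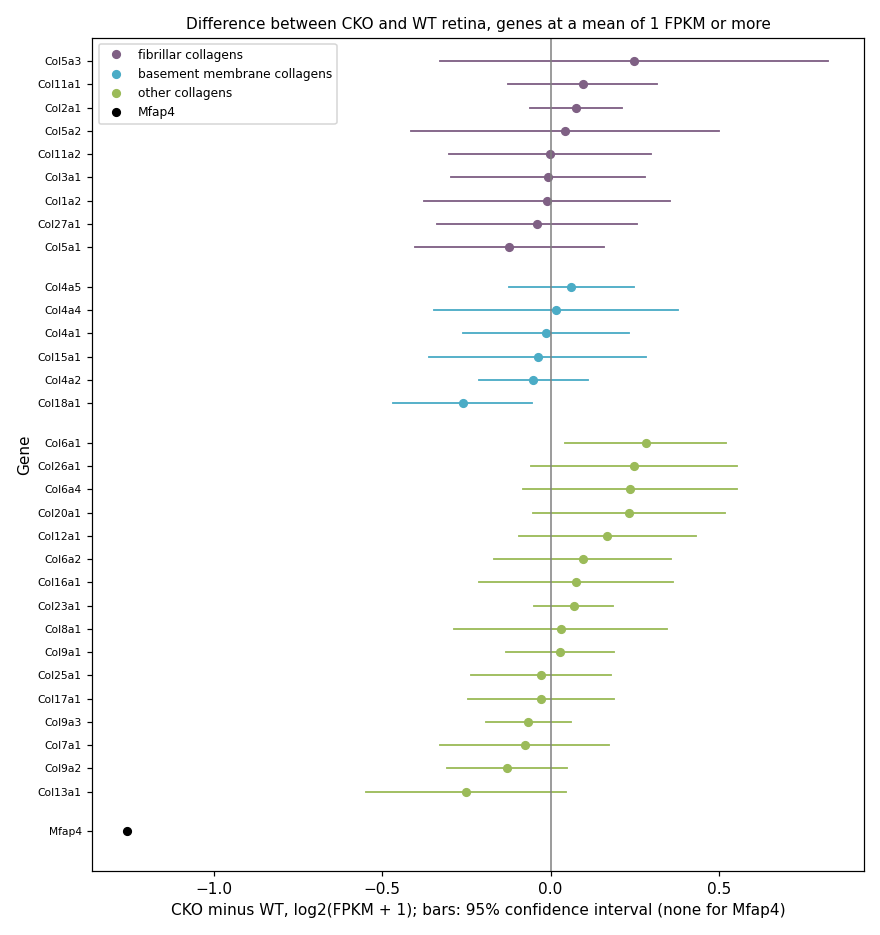
Difference between CKO and WT libraries, as CKO minus WT in log2(FPKM + 1), for the 31 collagens tested and Mfap4, coloured by class, with 95% confidence intervals from limma (none for Mfap4, which had no test). The intervals of Col18a1, below 0, and Col6a1, above 0, are the ones that leave out 0, and Mfap4 lies apart at -1.26.

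Fibrillar collagens were present mainly as the chains of types II, XI, V and XXVII. Their 11 chains summed to 59.1 ± 5.40 FPKM in CKO libraries and 56.3 ± 3.21 FPKM in WT libraries (SD, n = 3 each). Among the 9 tested, 0 were higher and 0 were lower past the threshold, and their median fold change on the log2 scale was -0.00030.

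Col2a1, the chain of type II collagen of vitreous and cartilage, had 27.5, 24.1 and 26.01 FPKM in the CKO libraries, against 24.7, 24.6 and 24.1 FPKM in the WT libraries. The groups overlapped, and the difference of 0.07 ± 0.06 on the log2 scale (SE) had a limma adjusted p of 0.796. Type XI collagen, which sits in the core of type II fibrils, was represented by Col11a2 and Col11a1. Col11a2 had 7.75, 8.25 and 10.5 FPKM in the CKO libraries, against 7.65, 10.1 and 8.74 FPKM in the WT libraries. Col11a1 had 4.39, 4.70 and 4.89 FPKM in the CKO libraries, against 4.03, 4.82 and 4.07 FPKM in the WT libraries. Both overlapped between the groups, and Col11a2 exceeded Col11a1 by 1.75 to 2.16 times in every library. Col27a1, a chain of cartilage fibrils, had 4.13, 5.28 and 6.12 FPKM in the CKO libraries, against 5.02, 5.77 and 5.11 FPKM in the WT libraries.

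Type V collagen starts fibrils and limits their width. Its chain Col5a3 was the most uneven of the 5 fibrillar chains of highest level, with 5.79, 3.54 and 8.41 FPKM in the CKO libraries, against 3.96, 5.76 and 4.16 FPKM in the WT libraries. CKO 3 was highest and CKO 2 lowest, so the WT values lay inside the range of the CKO values. The difference of 0.25 on the log2 scale had a 95% confidence interval from -0.33 to 0.83 (limma adjusted p = 0.854), and without CKO 3 it was -0.0041. Col5a1 averaged 1.35 ± 0.0914 FPKM in CKO libraries and 1.57 ± 0.234 FPKM in WT libraries (SD, n = 3 each). Col5a2 had 0.730 to 1.70 FPKM in CKO libraries and 0.773 to 1.16 FPKM in WT libraries.

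Types I and III, the collagens of sclera, skin and vessel walls, were low. Col1a2 had 2.75, 4.22 and 4.43 FPKM in the CKO libraries, against 3.57, 3.44 and 4.36 FPKM in the WT libraries. Its partner chain Col1a1 had 0.117, 0.0947 and 0.130 FPKM in the CKO libraries, against 0.215, 0.140 and 0.231 FPKM in the WT libraries. All CKO values of Col1a1 lay below all WT values, at levels under the 1 FPKM needed for a test. The ratio of Col1a2 to Col1a1 was 23.4, 44.6 and 34.2 in the CKO libraries, against 16.6, 24.6 and 18.9 in the WT libraries, although type I collagen is assembled mostly with more of the Col1a1 product. Col3a1 had 1.30 to 1.69 FPKM in CKO libraries and 1.36 to 1.74 FPKM in WT libraries. Col24a1, a minor fibrillar chain, had 0.583 to 0.923 FPKM in CKO libraries and 0.556 to 0.780 FPKM in WT libraries and was not tested.

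Basement membrane collagens were led by Col4a1 and Col4a2, whose products assemble with each other into the common type IV network. The genes lie head to head on chromosome 8, their transcripts overlap at the start by 22 bases, and they are known to be read in opposite directions from a shared promoter. The RefSeq promoter windows on GRCm38.p6, from 250 bases before to 50 bases after each start, are shown because the pair had nearly equal levels in every library; each is written 5′ to 3′ along its own gene. Capitals mark the 78 bases that both windows cover (chr8:11312777-11312854), which read as the reverse complement of each other.
Col4a1, chr8:11312777-11313076, minus strand: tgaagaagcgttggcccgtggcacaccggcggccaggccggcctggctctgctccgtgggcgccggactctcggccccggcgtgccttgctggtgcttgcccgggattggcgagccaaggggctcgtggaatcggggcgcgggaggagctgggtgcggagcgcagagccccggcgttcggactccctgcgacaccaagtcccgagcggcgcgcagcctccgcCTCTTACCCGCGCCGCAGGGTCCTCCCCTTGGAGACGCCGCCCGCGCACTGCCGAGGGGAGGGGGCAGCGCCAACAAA
Col4a2, chr8:11312555-11312854, plus strand: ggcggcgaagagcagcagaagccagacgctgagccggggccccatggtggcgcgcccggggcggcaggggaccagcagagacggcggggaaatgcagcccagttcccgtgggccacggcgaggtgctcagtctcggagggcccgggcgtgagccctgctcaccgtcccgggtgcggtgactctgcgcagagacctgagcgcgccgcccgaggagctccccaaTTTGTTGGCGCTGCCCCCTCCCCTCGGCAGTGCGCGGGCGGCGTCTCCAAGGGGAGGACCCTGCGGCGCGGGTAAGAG
The windows are rich in G and C, at 74.0% for Col4a1 and 73.7% for Col4a2. The GC box letters GGGCGG, searched on both strands, occurred at 1 place in the Col4a1 window and 3 places in the Col4a2 window, with 1 in the shared stretch, and were present in 35.7% of the 32851 RefSeq promoter windows of the same length. CCAAT occurred at 1 place in each window, outside the shared stretch in Col4a1 and across its edge in Col4a2, and in 37.4% of all windows. TATAAA occurred in neither, and in 13.6% of all windows. These are letter matches in the windows and not measured binding sites.

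Col4a1 had 26.99, 30.1 and 29.2 FPKM in the CKO libraries, against 25.8, 27.1 and 34.8 FPKM in the WT libraries. Col4a2 had 23.96, 25.4 and 24.3 FPKM in the CKO libraries, against 23.5, 25.1 and 27.97 FPKM in the WT libraries. The groups overlapped in both genes, with WT 3 highest and WT 1 lowest in each. The ratio of Col4a1 to Col4a2 stayed between 1.08 and 1.24 in all 6 libraries. It averaged 1.17 ± 0.0396 in CKO libraries and 1.14 ± 0.0902 in WT libraries (SD, n = 3 each).

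The chains of the specialised type IV networks were lower. Col4a5 had 4.86, 4.62 and 4.999 FPKM in the CKO libraries, against 4.48, 4.75 and 4.51 FPKM in the WT libraries. Its head-to-head neighbour on the X chromosome, Col4a6, had 0.775 to 1.0005 FPKM in CKO libraries and 0.724 to 1.07 FPKM in WT libraries, so that Col4a5 exceeded it by 4.43 to 6.29 times, unlike the near equality of Col4a1 and Col4a2. Col4a3 and Col4a4, whose starts lie 71 bases apart on chromosome 1, form with Col4a5 the network of the glomerular and other specialised basement membranes. Col4a3 had 0.829, 0.733 and 0.775 FPKM in the CKO libraries, against 1.08, 1.05 and 0.863 FPKM in the WT libraries. All its CKO values lay below all its WT values, at a mean below the 1 FPKM needed for a test, and its exons overlap those of C430014B12Rik on the other strand. Col4a4 did not share this pattern, with 1.06, 0.839 and 1.18 FPKM in the CKO libraries, against 0.670, 1.13 and 1.24 FPKM in the WT libraries.

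Col18a1 encodes the proteoglycan-bearing basement membrane collagen from which endostatin, an inhibitor of vessel growth, is cut. It had 11.1, 12.01 and 11.9 FPKM in the CKO libraries, against 14.98, 15.4 and 12.4 FPKM in the WT libraries. The CKO values lay close together and all below the WT values, of which WT 3 was nearest to them. The difference was -0.26 ± 0.09 on the log2 scale (SE), with a 95% confidence interval from -0.47 to -0.06 and a limma adjusted p of 0.5498. Col15a1, the other collagen of its kind, had 0.901, 1.02 and 1.09 FPKM in the CKO libraries, against 0.781, 1.26 and 1.17 FPKM in the WT libraries. Over the class, the 8 chains summed to 73.5 ± 2.49 FPKM in CKO libraries and 77.6 ± 5.80 FPKM in WT libraries (SD, n = 3 each). Among the 6 tested, 0 were higher and 0 were lower past the threshold, with a median of -0.03 on the log2 scale. The 14 tested genes of a list of other basement membrane components (laminins, nidogens, perlecan and agrin among them) likewise had 0 higher and 0 lower past the threshold and a median of -0.02. The gene of smallest p in that list was Npnt (nephronectin, an integrin ligand), with 34.1, 36.5 and 37.2 FPKM in the CKO libraries, against 30.2, 29.2 and 27.98 FPKM in the WT libraries (limma adjusted p = 0.269).

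The other collagens held most of the collagen message, at 276 ± 21.7 FPKM in CKO libraries and 264 ± 4.67 FPKM in WT libraries (SD, n = 3 each). Among the 16 tested, 0 were higher and 0 were lower past the threshold, with a median of 0.05 on the log2 scale. They are given here by kind.

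Type IX collagen belongs to the fibril-associated collagens with interrupted triple helices (FACIT) and decorates the type II fibrils of vitreous and cartilage. Col9a1 had 104, 114 and 127 FPKM in the CKO libraries, against 113, 111 and 113 FPKM in the WT libraries. The WT values of Col9a1 were nearly equal and lay inside the range of the CKO values. Col9a2 had 18.9, 19.03 and 17.3 FPKM in the CKO libraries, against 21.1, 21.5 and 18.2 FPKM in the WT libraries. Col9a3 had 17.2, 16.2 and 17.1 FPKM in the CKO libraries, against 17.3, 18.05 and 17.6 FPKM in the WT libraries. All CKO values of Col9a3 lay below all WT values, by a difference of -0.07 ± 0.06 on the log2 scale (SE, limma adjusted p = 0.803), and its exons overlap those of Tcfl5 on the other strand. Type IX molecules are assembled from the products of all these genes together, yet Col9a1 exceeded Col9a2 by 5.16 to 7.34 times in every library, while Col9a2 and Col9a3 were within 1.02 to 1.22 times of each other. Col9a1 also exceeded Col2a1, by 3.80 to 4.90 times.

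Type VI collagen forms beaded filaments around cells and next to basement membranes. Col6a1 had 35.9, 45.3 and 48.4 FPKM in the CKO libraries, against 33.6, 36.9 and 34.7 FPKM in the WT libraries. CKO 2 and CKO 3 lay above all WT libraries, while CKO 1 lay below WT 2. The difference of 0.28 ± 0.10 on the log2 scale (SE) had a 95% confidence interval from 0.04 to 0.52 and a limma adjusted p of 0.586. Without CKO 1, the difference was 0.41 with a limma adjusted p of 0.1833, the lowest of any collagen under the alternatives tried. Col6a2, the neighbour of Col6a1 on chromosome 10 and its partner in the type VI molecule, had 8.45, 10.7 and 11.3 FPKM in the CKO libraries, against 8.80, 10.4 and 8.95 FPKM in the WT libraries.

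In both genes CKO 3 was highest, but the ratio of Col6a1 to Col6a2 differed between the groups. It was 4.25, 4.25 and 4.28 in the CKO libraries, against 3.82, 3.55 and 3.88 in the WT libraries, and it was singled out among 14 ratios after these were seen, so it is a description with no test. The ratio of Col3a1 to Col1a1 also stood apart, with Col1a1 below 1 FPKM. That ratio was 11.1, 17.8 and 12.7 in the CKO libraries, against 7.30, 9.72 and 7.54 in the WT libraries. Col6a3, which completes the common type VI molecule, was low and uneven, with 0.283, 0.205 and 0.145 FPKM in the CKO libraries, against 0.0468, 0.271 and 0.353 FPKM in the WT libraries. Col6a4 had 2.62, 3.54 and 3.84 FPKM in the CKO libraries, against 2.85, 2.84 and 2.29 FPKM in the WT libraries. CKO 2 and CKO 3 were again above all WT libraries and CKO 1 was not. Col6a5 and Col6a6 lie in a row with Col6a4 on chromosome 9, and their levels were 0.390 to 0.608 FPKM in CKO libraries and 0.274 to 0.484 FPKM in WT libraries. Together the 6 chains of type VI summed to 48.1, 60.7 and 64.8 FPKM in the CKO libraries, against 46.2, 51.0 and 47.1 FPKM in the WT libraries.

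**Figure D3:**
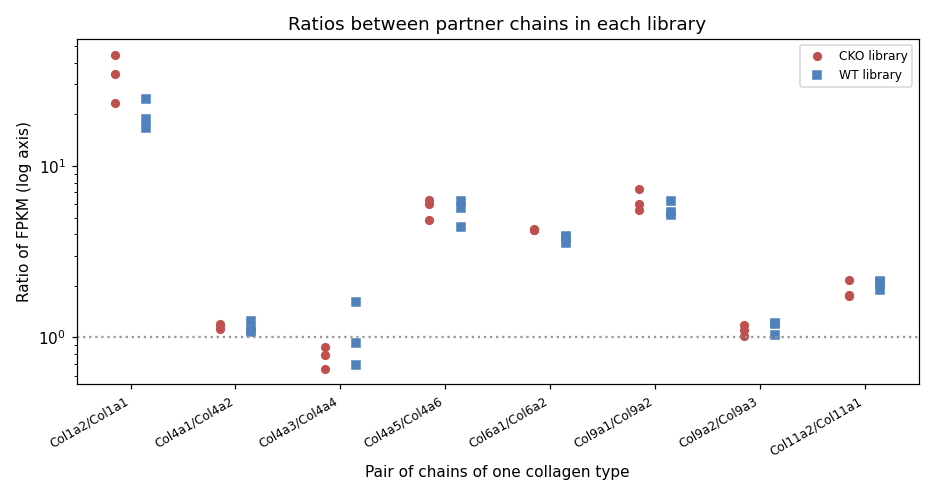
Ratio of FPKM between partner chains of one collagen type in each library on a log axis (circles CKO, left; squares WT, right), with a dotted line at equal levels. Col4a1 and Col4a2 stay near equality, between 1.08 and 1.24, and for Col6a1 over Col6a2 the CKO libraries lie above the WT libraries.

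Transmembrane collagens are anchored in the cell surface and shed their outer part. Col23a1, one of the most abundant members, had 37.2, 37.1 and 39.4 FPKM in the CKO libraries, against 34.6, 37.0 and 36.7 FPKM in the WT libraries. All CKO values lay above all WT values by a narrow margin, with a difference of 0.07 ± 0.05 on the log2 scale (SE, limma adjusted p = 0.778). Col13a1, known for its role at the neuromuscular junction, had 0.980, 0.936 and 1.30 FPKM in the CKO libraries, against 1.35, 1.64 and 1.40 FPKM in the WT libraries. All its CKO values lay below all its WT values, with a difference of -0.25 on the log2 scale and a 95% confidence interval from -0.55 to 0.05 (limma adjusted p = 0.698). Col25a1, found in neurons, had 4.93 to 5.29 FPKM in CKO libraries and 4.67 to 5.64 FPKM in WT libraries. Col17a1, the collagen of hemidesmosomes, had 3.37 to 3.99 FPKM in CKO libraries and 3.56 to 3.83 FPKM in WT libraries.

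The remaining members overlapped between the groups, apart from Col14a1. Among the FACIT chains, Col20a1 had 4.73 to 5.59 FPKM in CKO libraries and 3.46 to 4.82 FPKM in WT libraries. Col12a1 had 1.72 to 2.23 FPKM in CKO libraries and 1.61 to 1.73 FPKM in WT libraries. Col16a1 had 1.28 to 1.58 FPKM in CKO libraries and 1.18 to 1.56 FPKM in WT libraries. None of these passed the test. Col14a1, which binds the surface of fibrils, had 0.232, 0.289 and 0.186 FPKM in the CKO libraries, against 0.176, 0.161 and 0.166 FPKM in the WT libraries. Its CKO values were all above its WT values at levels too low for a test. Col19a1 had 0.606 to 0.649 FPKM in CKO libraries and 0.476 to 0.754 FPKM in WT libraries, although it lies only 9205 bases from the abundant Col9a1, end to end on chromosome 1. Col22a1, a collagen of tissue junctions, had 0.682 to 0.884 FPKM in CKO libraries and 0.766 to 1.49 FPKM in WT libraries.

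Col26a1 had 3.43, 3.37 and 3.83 FPKM in the CKO libraries, against 3.59, 2.47 and 2.49 FPKM in the WT libraries. WT 1 lay among the CKO libraries, and the difference of 0.25 on the log2 scale had a limma adjusted p of 0.712. Col7a1, which forms anchoring fibrils below epithelia, had 3.98 to 4.37 FPKM in CKO libraries and 3.78 to 4.97 FPKM in WT libraries. The short-chain collagens of corneal endothelium and growth cartilage were low: Col8a1 had 1.32 to 1.95 FPKM in CKO libraries and 1.32 to 1.72 FPKM in WT libraries, and Col8a2 and Col10a1 reached at most 0.423 FPKM in any library. Col28a1 had 0.0981 to 0.318 FPKM in CKO libraries and 0.0685 to 0.282 FPKM in WT libraries.

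Mfap4, at chr11:61485431-61488900 on the plus strand of GRCm38, had 1.21, 0.899 and 0.805 FPKM in the CKO libraries, against 4.45, 4.45 and 2.49 FPKM in the WT libraries. All CKO values lay below all WT values, and WT 3 was the WT library nearest to them. The CKO mean was 25.6% of the WT mean, and the difference on the log2(FPKM + 1) scale was -1.26, which understates the change of a gene at so low a level. Leaving out each library in turn gave differences from -1.47 to -1.15. This range comes from the same values that were used to pick Mfap4, so it is description and no support. Groups stood apart with CKO lower in 6.95% of all genes tested, and nothing is read from this share for a gene picked on the same values.

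Exons of Mfap4 overlap those of Mapk7, a kinase gene on the other strand, and the sources used here do not say whether fragments were assigned by strand. Mapk7 had 5.54, 4.96 and 5.09 FPKM in the CKO libraries, against 5.09, 4.05 and 5.37 FPKM in the WT libraries. Its groups overlapped. Genes of elastic microfibrils, the structures that Mfap4 binds, or named for them, were read from a list of 21 genes. Of the 15 tested, 0 were higher and 0 were lower past the threshold, 3 had a fold change above 0 and 12 below, and the median was -0.11 on the log2 scale beside -0.0016 over all genes tested. In 5 of the 15, all CKO libraries lay below all WT libraries, where the share over all genes tested was 6.95%. The list holds Mfap1a and Mfap1b, which encode a splicing factor despite their name, and without them, a choice made after seeing the data, 3 of 13 were above 0 and 10 below, with a median of -0.06.

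Within that list, Fbln1 (fibulin-1, a basement membrane and elastic fibre protein) had 0.668, 0.641 and 0.8497 FPKM in the CKO libraries, against 2.19, 2.198 and 0.699 FPKM in the WT libraries. WT 1 and WT 2 were high and WT 3 lay among the CKO libraries (limma adjusted p = 0.618). Ltbp1, which holds latent TGF-beta in the matrix, averaged 1.63 ± 0.0511 FPKM in CKO libraries and 2.17 ± 0.244 FPKM in WT libraries (SD, n = 3 each, limma adjusted p = 0.604). Mfap1a averaged 9.91 ± 0.903 FPKM in CKO libraries and 11.6 ± 0.586 FPKM in WT libraries (SD, n = 3 each, limma adjusted p = 0.592). The groups overlapped in the main structural genes: Fbn1 (fibrillin-1) had 2.37 to 2.54 FPKM in CKO libraries and 1.92 to 3.14 FPKM in WT libraries, and Eln (elastin) had 12.8 to 14.6 FPKM in CKO libraries and 12.7 to 13.8 FPKM in WT libraries.

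**Figure D4:**
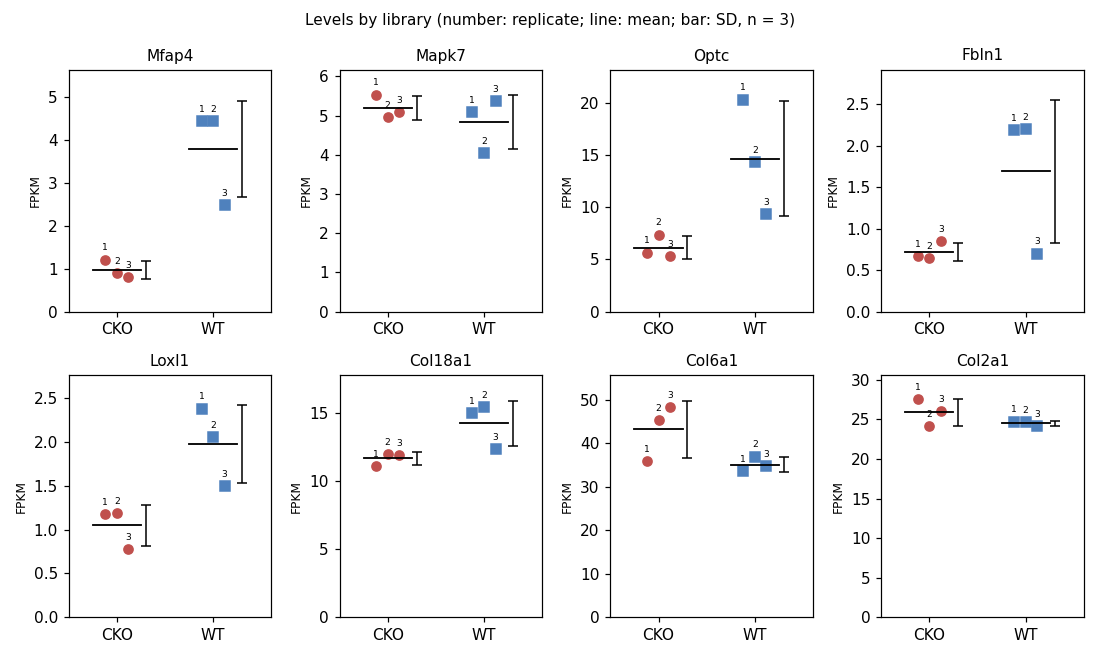
FPKM per library for Mfap4, its opposite-strand neighbour Mapk7, Optc, Fbln1, Loxl1, Col18a1, Col6a1 and Col2a1 (circles CKO, left; squares WT, right; numbers are replicates, lines means and bars SD, n = 3). In Mfap4, Optc, Loxl1 and Col18a1 every CKO library lies below every WT library and WT 3 is the lowest WT library. The genes shown are a selection from those named in the text, so this shared order is no result. Groups stood apart with CKO lower in 6.95% of all genes tested.

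Small leucine-rich proteoglycans, which coat collagen fibrils and set their spacing, were a list of 12 genes with 7 tested. Of these, 0 were higher and 0 were lower past the threshold, and the median difference was -0.22 on the log2 scale. The fold change was above 0 for 2 and below 0 for 5. In 3 (Optc, Fmod and Podn) all CKO libraries lay below all WT libraries, where the share over all genes tested was 6.95%. Optc (opticin, a vitreous proteoglycan made by the ciliary epithelium) had 5.66, 7.38 and 5.31 FPKM in the CKO libraries, against 20.3, 14.3 and 9.33 FPKM in the WT libraries. All CKO values lay below all WT values, with a difference of -1.09 ± 0.24 on the log2 scale (SE) and a limma adjusted p of 0.3295. Fmod (fibromodulin) averaged 1.09 ± 0.1596 FPKM in CKO libraries and 1.89 ± 0.612 FPKM in WT libraries (SD, n = 3 each, limma adjusted p = 0.595), and Podn (podocan) averaged 2.75 ± 0.506 FPKM in CKO libraries and 3.63 ± 0.359 FPKM in WT libraries (SD, n = 3 each, limma adjusted p = 0.604).

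No gene of the machinery that makes, joins, binds or cleaves collagen passed the threshold. Of 22 genes of chain modification, folding and export, 21 were tested, and 0 were higher and 0 were lower past the threshold, with a median of -0.02 on the log2 scale. Colgalt1, which puts galactose on collagen lysines, had 20.6, 22.1 and 20.2 FPKM in the CKO libraries, against 19.3, 19.1 and 18.6 FPKM in the WT libraries (limma adjusted p = 0.625). Serpinh1 (HSP47, the collagen chaperone) averaged 19.3 ± 2.45 FPKM in CKO libraries and 19.6 ± 0.139 FPKM in WT libraries (SD, n = 3 each). Of 13 genes of propeptide cleavage and cross-linking, 10 were tested, and 0 were higher and 0 were lower past the threshold. Loxl1, a lysyl oxidase that cross-links elastin and collagen, had 1.18, 1.19 and 0.781 FPKM in the CKO libraries, against 2.38, 2.05 and 1.49 FPKM in the WT libraries. All CKO values lay below all WT values, and the limma adjusted p was 0.4915. Bmp1, the procollagen C-proteinase, had 12.8, 12.9 and 13.95 FPKM in the CKO libraries, against 14.1, 15.4 and 16.1 FPKM in the WT libraries, again without overlap (limma adjusted p = 0.592). Among collagen receptors, 4 of 10 were tested, and among collagen-cleaving proteases and their inhibitors 7 of 15, with 0 higher and 0 lower past the threshold in both lists and medians of 2.61e-05 and 0.03 on the log2 scale.

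Markers of tissues next to the retina were set beside these values, and their part in the result was not tested. The ciliary body and iris list, which shares Optc with the proteoglycan list, summed to 75.0, 70.8 and 76.6 FPKM over its 10 genes in the CKO libraries, against 96.4, 91.2 and 84.3 FPKM in the WT libraries. All 8 of its tested genes had a fold change below 0, as had 50.5% of all genes tested, with 0 of the 8 past the threshold, and no gene of the list was at 0 in every library. Without Optc, a choice made after seeing the data, the list summed to 69.4, 63.4 and 71.3 FPKM in the CKO libraries, against 76.1, 76.8 and 74.97 FPKM in the WT libraries. All 9 tested lens genes had a fold change below 0, with 0 past the threshold, and WT 2 had the highest lens sum. The 13 markers of fibroblasts, sclera and choroid summed to between 54.9 and 63.9 FPKM in CKO libraries and between 59.04 and 70.4 FPKM in WT libraries. Of 12 endothelial markers, all tested, 9 had a fold change below 0 and in 3 all CKO libraries lay below all WT libraries (Cldn5, Tie1 and Pecam1), where the share over all genes tested was 6.95%. Their median was -0.12 on the log2 scale. They summed to between 129.8 and 143 FPKM in CKO libraries and between 137 and 146 FPKM in WT libraries, and mural cell markers to between 40.3 and 50.5 FPKM in CKO libraries and between 40.0 and 47.3 FPKM in WT libraries, and in these lists of stroma and vessels 0 genes passed the threshold. The sums of the pigment epithelium, skeletal muscle, astrocyte and retinal neuron lists overlapped between the groups, with 0 genes past the threshold. Most of the pigment epithelium sum was Rlbp1, at 190 to 213 FPKM in CKO libraries and 194 to 198 FPKM in WT libraries. Rlbp1 is also on the Muller glia list, and 7 of the 12 pigment epithelium genes averaged below 1 FPKM. That sum is therefore no measure of pigment epithelium in the samples. The 12 Muller glia markers summed to between 2483 and 2690 FPKM in CKO libraries and between 2281 and 2405 FPKM in WT libraries. Without Dkk3, a comparison added after seeing the data, the other 11 summed to 2067, 2124 and 2216 FPKM in the CKO libraries, against 2052, 2165 and 2065 FPKM in the WT libraries, which overlap. The Muller glia list held the only marker past the threshold, Dkk3, a secreted Wnt modulator, with 416, 450.3 and 474 FPKM in the CKO libraries, against 228, 240 and 233 FPKM in the WT libraries (limma adjusted p = 0.002744).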

How the data were processed

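Per the labels' protocols, retinal RNA was isolated with TRIzol and the TruSeq kit for stranded mRNA was used. Tools listed in the submitters' processing notes are Cufflinks 2.2.1, SAMtools 1.11, TopHat2 2.0.13 and Bowtie2 2.3.5.1, and the build mm10. The sources used here name no annotation, no parameters and no strand setting. The authors deposited FPKM per gene symbol, and no counts were used. The absolute depth of the libraries cannot be read from FPKM. Low genes (mean under 0.3 FPKM), whose ratios fall on ratios of small whole numbers (tolerance 0.01, log2), gave relative depths of 1.05, 1.295 and 1.185 for CKO 1 to CKO 3, and of 1.09 for WT 2 and 1.065 for WT 3, with WT 1 as the unit. In WT 3, 27 symbols read as dates and were restored from the matching rows of the other libraries.

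Values were compared as log2(FPKM + 1) by limma 3.58.1 under R 4.3.3, with a variance trend in eBayes, two-sided and with no covariate, over the 13215 genes averaging 1 FPKM or more. Benjamini-Hochberg adjustment ran over all of them, at 0.05. On simulated data, the procedure recovered 18.4% of changes of 0.25 and 89.2% of changes of 0.5 on the log2 scale. Many more genes were changed in the simulated data than were called here, which makes the adjusted threshold easier to pass. These shares therefore overstate what could be found here. Optc, for example, differed by -1.09 with a limma adjusted p of 0.3295. The changed genes there had a mean above 3 on that scale, and lower genes were not tried. The largest collagen difference was 0.283, so changes of that size would mostly be missed. Fold changes on this scale understate the change of low genes. An exact permutation test of 3 against 3 libraries cannot go below p = 0.1, so none was used. Positions come from GENCODE M21 and promoters from RefSeq, which held 35 of the 45 members.

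The members, their classes and the 18 gene lists were chosen with earlier results of these data known. By rule, the text names Mfap4, in each class the 5 collagens of highest mean and the 4 of largest difference, their partner chains, and genes from among the 3 of smallest p in each list. Other members are given so that each is accounted for. Col1a1, Col4a3 and Col14a1 were singled out after their values were seen, as were Mapk7, Fbn1, Eln, Serpinh1, Dcn, Lum and rhodopsin. Alternatives were other pseudocounts, filters, scalings and variance models, a replicate block, and leaving out each library.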

Additional observations from a re-analysis of the deposited data

How the results depend on the processing

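No collagen passed the threshold in either direction under any of the 16 alternatives. Over all genes, the count was 2 higher and 1 lower in CKO; it was 3 higher and 0 lower with no filter or with robust eBayes, 1 higher and 0 lower with no variance trend, and 1 to 3 higher and 0 to 2 lower when 1 library was left out. The 1 gene lower was Cyfip2 itself (limma adjusted p = 0.0239 in the main fit). Under the alternatives with 0 lower, the targeted gene was not called either. The lack of called collagens there is therefore weak evidence of no change. The sources used here do not say whether replicate numbers pair the samples. Deviations of same-numbered libraries from their group means correlated at 0.072, 0.006 and 0.101, and those of differently numbered libraries at -0.119 to 0.036. With 3 libraries per group, whose deviations sum to 0 in each gene, these values cannot decide whether samples were paired. With the replicate block, 1 gene was higher and 1 lower, and no collagen was called. The difference of Mfap4 was -1.83 with a pseudocount of 0.1 and -1.93 with 0.01, beside -1.26 with 1, because a smaller pseudocount shrinks low genes less; with a minimum mean of 5 FPKM it was not in the fit. Of 19 named collagens tested, 13 kept their sign under all alternatives run and 6 turned it at least once, all near 0 or, for Col5a3, without CKO 3. The filters, the replicate block and the variance models left the differences of single genes unchanged. Only the other alternatives could turn a sign. The medians of the classes ranged from -0.04 to 0.08 (fibrillar), -0.11 to 0.01 (basement membrane) and -0.01 to 0.09 (other). FPKM without counts sets no interval for single libraries, and members below 1 FPKM were described only.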
